A study of Mus musculus with 14 samples.

Results

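The 41 genes described here are imprinted genes of the mouse, transcribed mainly or only from the copy inherited from 1 parent in at least some tissues. They were listed by name and come from 19 loci. The count tables list 43629 gene identifiers, and 40 of the 41 members have one, Peg13 being the exception. Of these 40, 36 had enough counts to be tested, among 15959 tested genes in all. The study asked how prolonged activity alters gene expression in hippocampal neurons and where the chromatin reader L3mbtl1 lies on the genome. Primary hippocampal cells of wild-type C57BL6 pups aged 0 to 1 days were cultured for 14 days and sequenced as bulk RNA. The 4 CTRL cultures received 0.1% DMSO for 15 h, and the 4 PTX cultures received 100 µM picrotoxin, a blocker of GABA-A receptors that raises network activity, for 15 h. The L3mbtl1 peaks come from ChIP-seq of whole hippocampus of C57BL6/129 mice of postnatal day 7 to 8, with 3 wild-type and 3 L3mbtl1-/- samples behind a single peak list.

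Imprinted genes lie in clusters in which a differentially methylated control region, set in the germ line, decides which parental copy is transcribed. A cluster usually holds protein-coding genes and at least 1 long noncoding RNA, and that RNA often silences the coding genes on the copy from which it is transcribed. Many of these genes act on growth, and several are transcribed at high levels in the brain, where some, such as Ube3a, are imprinted in neurons and not in glia. The cultures are inbred, so the counts are the sum of both parental copies, and no value below says which copy a transcript came from.

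The 8 libraries held 14524916 to 19498189 gene counts. All levels are CPM, gene counts scaled to a common total, on TMM-scaled library sizes, in library order 1 to 4, and CPM is not divided by transcript length, so levels of different genes are not compared. A gene is said to have risen or fallen where its edgeR adjusted p (Benjamini-Hochberg, over all tested genes) was under 0.05. Levels of cell type markers differed between the groups as well. Summed CPM of 8 pan-neuronal markers was 4485 to 5851 in CTRL and 7247 to 10124 in PTX, and of 13 astrocyte markers 7367 to 10027 in CTRL and 5745 to 7504 in PTX. The astrocyte sums overlapped, and of these markers 5 fell, 1 (Fgfr3) rose and 7 did not pass. The 7 include Slc1a3, at a mean of 2788 CPM in CTRL and 2833 CPM in PTX. The pan-neuronal sum was carried by Nefl, at a mean of 319 CPM in CTRL and 3318 CPM in PTX, and Map2, at 2034 and 3018 CPM. Of its 8 markers 3 rose and 2, Rbfox3 and Syt1, fell, with a median log2 fold change of -0.20. In the excitatory neuron list 7 of 10 markers fell and 1 rose, while the sum was 497 to 642 CPM in CTRL and 679 to 844 CPM in PTX. The higher sum was carried by the 1 that rose, Slc17a6, at a mean of 39.4 CPM in CTRL and 501 CPM in PTX. The 12 inhibitory neuron markers held 5 that rose and 2 that fell. No marker of these lists was at 0 in all 8 libraries. The part of such shifts in the levels of the imprinted genes was not tested, and in bulk RNA fewer cells of a type and less RNA per cell cannot be told apart. Both libraries numbered 1 stood apart: summed CPM of 12 meningeal fibroblast markers was 834 in CTRL 1 against 496 to 515 in the other CTRL libraries, and 796 in PTX 1 against 541 to 576. Their microglia markers, 14 in the list, summed to 57.9 CPM in CTRL 1 against 184 to 200 and to 83.1 CPM in PTX 1 against 162 to 350.

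Of the 36 tested imprinted genes, 12 rose, 6 fell and 18 did not pass the test. The called share was 50.0%, against 39.2% of all tested genes. The shares for rises and falls alone in all genes were 19.0% and 20.1%. Those that rose were Peg10, H19, Peg12, Mest, Zdbf2, Plagl1, Inpp5f, Impact, Igf2r, Mirg, Airn and Usp29, from 1.56-fold to 3.74-fold. Those that fell were Ddc, Mkrn3, Snhg14, Snrpn, Sgce and Commd1, from 1.38-fold to 4.24-fold. The median log2 fold change over the tested members was 0.00022 and over all tested genes -0.033. Changes of at least 2-fold were found in 6 rising and 2 falling members, against 11.9% of all tested genes. In 18 of the 36 members the PTX and CTRL libraries did not overlap, against 38.0% of all tested genes, and these 18 were the called ones. Since the background is high, these counts are read beside it and not on their own. With the replicate number as a block, 13 members rose and 9 fell, against 25.7% higher and 29.6% lower, 55.3% in all, among tested genes. Among members usually expressed from the paternal copy, 8 of 20 rose and 4 fell. Among those expressed from the maternal copy, 2 of 10 rose and 1 fell, and among the 6 whose expressed copy depends on the isoform or tissue, 2 rose and 1 fell. Whether these groups differ was not tested.

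**Figure D1:**
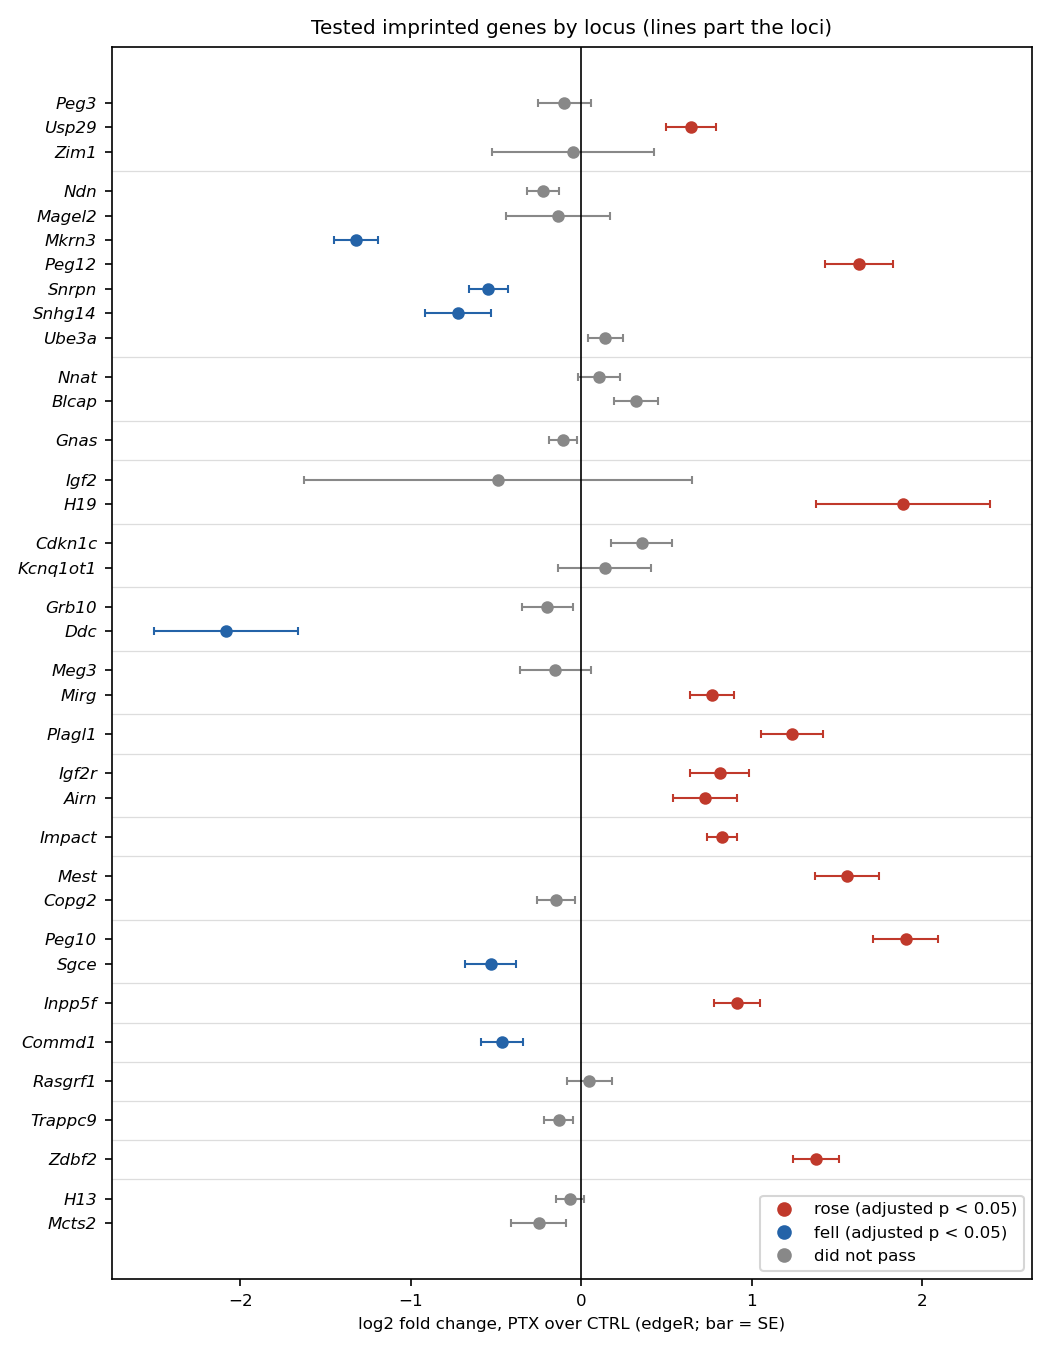
Log2 fold change (PTX against CTRL) of the 36 tested imprinted genes, ordered by locus, with bars of 1 standard error and colours for rose, fell and not called. The 12 risen genes lie between 0.64 and 1.90, and the 6 fallen genes between -0.47 and -2.09.

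Promoters of 5 members are shown: those of Peg3, Meg3 and Zdbf2 hold a motif of activity-regulated transcription, and those of Rasgrf1 and Igf2r belong to genes with an L3mbtl1 peak. They are RefSeq windows of GRCm38.p6, the assembly of mm10, from 250 bases before to 50 after the start, and 50 such windows covered 34 of the 41 members. Capitals mark TGACG on either strand, the core of the cAMP response element, and where the full palindrome TGACGTCA is present all its bases are capitals. Peg3 is chr7:6730370-6730669 on the minus strand, Meg3 chr12:109540746-109541045 on the plus strand and Zdbf2 chr1:63273019-63273318 on the plus strand. Rasgrf1 is chr9:89909525-89909824 on the plus strand and lies within an L3mbtl1 peak. Igf2r is chr17:12769657-12769956 on the minus strand. Its window overlaps no peak, and the peak of its gene lies outside the window.
Peg3: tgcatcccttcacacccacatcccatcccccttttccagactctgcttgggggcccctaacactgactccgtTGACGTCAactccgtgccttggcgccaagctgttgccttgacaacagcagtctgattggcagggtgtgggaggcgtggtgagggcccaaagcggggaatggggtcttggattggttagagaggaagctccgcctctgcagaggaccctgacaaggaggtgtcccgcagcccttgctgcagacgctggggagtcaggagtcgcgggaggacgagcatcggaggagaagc
Meg3: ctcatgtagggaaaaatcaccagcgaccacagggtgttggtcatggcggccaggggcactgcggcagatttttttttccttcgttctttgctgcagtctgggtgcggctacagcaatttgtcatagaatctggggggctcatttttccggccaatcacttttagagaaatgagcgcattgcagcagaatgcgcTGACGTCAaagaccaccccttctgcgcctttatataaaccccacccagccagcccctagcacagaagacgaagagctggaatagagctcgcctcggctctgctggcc
Zdbf2: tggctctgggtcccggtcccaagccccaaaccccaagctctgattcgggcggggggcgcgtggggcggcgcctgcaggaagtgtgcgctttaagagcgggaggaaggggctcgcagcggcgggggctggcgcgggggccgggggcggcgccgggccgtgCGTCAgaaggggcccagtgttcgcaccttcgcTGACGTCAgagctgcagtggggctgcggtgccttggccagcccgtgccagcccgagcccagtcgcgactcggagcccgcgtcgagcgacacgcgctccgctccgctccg
Rasgrf1: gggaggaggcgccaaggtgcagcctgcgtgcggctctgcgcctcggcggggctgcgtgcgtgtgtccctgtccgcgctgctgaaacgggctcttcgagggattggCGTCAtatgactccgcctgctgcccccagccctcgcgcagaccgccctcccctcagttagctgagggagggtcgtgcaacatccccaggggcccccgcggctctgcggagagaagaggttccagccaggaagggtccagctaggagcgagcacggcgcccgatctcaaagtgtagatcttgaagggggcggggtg
Igf2r: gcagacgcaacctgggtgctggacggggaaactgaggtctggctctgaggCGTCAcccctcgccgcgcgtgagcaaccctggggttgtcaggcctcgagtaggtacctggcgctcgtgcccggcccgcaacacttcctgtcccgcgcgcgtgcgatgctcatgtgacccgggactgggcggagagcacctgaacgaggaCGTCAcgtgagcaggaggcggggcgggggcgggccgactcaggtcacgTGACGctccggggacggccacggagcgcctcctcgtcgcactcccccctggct
The full palindrome was found in 4 windows, those of Meg3, Peg3, Usp29 and Zdbf2, a share to be read beside 1.79% of all 32851 windows. The windows of Peg3 and Usp29 face away from each other over the same DNA, so their palindrome is a single site, at chr7:6730590-6730597. It lies 178 bases before the Peg3 start and 7 bases after the Usp29 start. The palindrome lies 57 bases before the Meg3 start and 59 bases before the downstream start of Zdbf2. TGACG on either strand was in 18 of the 50 windows, from 15 members, and in 20.8% of all windows. TGCCGC, the hexamer read by ZFP57, a protein that keeps imprints methylated, was in 13 windows of 12 members on either strand and in 11.6% of all windows. The AP-1 motif TGANTCA, which is the same on both strands, was in 3 windows and in 7.81% of all windows. TGACGTCA contains TGACG on each strand, so its 4 windows are counted among the 18. TGANTCA and TGCCGC are not contained in it, and partial overlaps between motifs were not removed. The palindrome was added to the search after the matches to its core had been seen. The palindrome, its core and the ZFP57 hexamer each hold a CpG, and the shares were not adjusted for CpG content. The median CpG count was 7.0 over all windows, and most member windows were above it, from 0 (Rian) to 45 (Grb10). The 4 windows with the palindrome held 13 to 38. Overlapping windows of Gnas share a core site and those of Mest share hexamer sites, so these sites count in each window.

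In the Peg3 domain, Usp29 rose while its neighbour Peg3 did not pass the test. Usp29, a ubiquitin protease gene (chromosome 7, 6730559 to 6967220), was at 43.4, 39.2, 35.4 and 33.3 CPM in the CTRL cultures and 73.5, 44.9, 61 and 56.9 CPM in PTX. The groups did not overlap, and the rise was 1.56-fold (log2 fold change 0.64, SE 0.15, edgeR adjusted p = 0.00586). Peg3, a zinc finger protein gene on the other strand whose end lies 96 bp from that of Usp29, was at 538, 395, 428 and 451 CPM in the CTRL cultures and 534, 315, 414 and 428 CPM in PTX. Its groups overlapped and library 1 was highest in both (log2 fold change -0.10, SE 0.16, edgeR adjusted p = 0.657). Zim1, a maternally expressed zinc finger gene next to Peg3, was low, at 4.78, 1.96, 2.60 and 2.03 CPM in the CTRL cultures and 5.17, 0.885, 2.48 and 2.49 CPM in PTX. It too was highest in library 1 of each group, and its groups overlapped (edgeR adjusted p = 0.951).

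The region of chromosome 7 that corresponds to the human Prader-Willi and Angelman region moved in both directions. Mkrn3, Snrpn and Snhg14 fell, Peg12 rose, and Ndn, Magel2 and Ube3a did not pass the test. Mkrn3, a makorin RING finger gene (chromosome 7, 62417593 to 62420153), was at 24.3, 22.4, 22.7 and 18 CPM in the CTRL cultures and 9.64, 9.55, 7.86 and 8.01 CPM in PTX. The groups were far apart, and it fell 2.49-fold (log2 fold change -1.32, SE 0.13, edgeR adjusted p = 3.64e-05). Peg12, a relative of the Frat inhibitors of Gsk3 that lies 41717 bp from Mkrn3 (chromosome 7, 62461871 to 62464510), was at 2.59, 2.52, 2.55 and 2.61 CPM in the CTRL cultures and 8.23, 5.84, 10.5 and 7.28 CPM in PTX. Its CTRL values were nearly the same in all 4 libraries, and it rose 3.09-fold (log2 fold change 1.63, SE 0.20, edgeR adjusted p = 0.000143).

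Snrpn, which encodes the SmN splicing protein (chromosome 7, 59982495 to 60450177), was at 258, 225, 225 and 203 CPM in the CTRL cultures and 188, 139, 147 and 151 CPM in PTX. Every PTX library was below every CTRL library, a 1.46-fold fall (log2 fold change -0.54, SE 0.11, edgeR adjusted p = 0.00352). Snhg14, the long noncoding host of many small nucleolar RNAs (chromosome 7, 59272737 to 60450177), was at 943, 602, 588 and 769 CPM in the CTRL cultures and 566, 329, 461 and 404 CPM in PTX. It fell 1.65-fold (log2 fold change -0.72, SE 0.19, edgeR adjusted p = 0.0137), with the highest value of each group in library 1. Its call was lost without CTRL 1 (edgeR adjusted p = 0.0626), without PTX 3 (0.0553) and without PTX 4 (0.0690). Snhg14 spans Snrpn and overlaps Ube3a by 38101 bp on the opposite strand, and the strand setting of the counting is not given in the sources used here, so reads of these genes cannot be fully told apart.

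Ube3a, a ubiquitin ligase gene that neurons express from the maternal copy while the paternal Snhg14 transcript silences the other, was at 267 ± 28.4 CPM in the CTRL cultures and 295 ± 30.5 CPM under picrotoxin (SD, n = 4). Each PTX library exceeded its same-numbered control, in 4 of 4 pairs, but the difference missed the threshold (log2 fold change 0.14, SE 0.10, edgeR adjusted p = 0.318). Ndn, the gene of the MAGE-family protein necdin, was at 214 ± 16.7 CPM in the CTRL cultures and 183 ± 17.7 CPM in PTX (log2 fold change -0.23, edgeR adjusted p = 0.0837). All 4 pairs showed the lower value under picrotoxin, and the gene fell once replicate number was a block (edgeR adjusted p = 0.0115). It also passed with upper quartile scaling (0.0383), without CTRL 4 (0.0410) and without PTX 2 (0.0381). Magel2, another MAGE-family gene, was at only 0.620 ± 0.110 and 0.568 ± 0.143 CPM (edgeR adjusted p = 0.766).

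**Figure D2:**
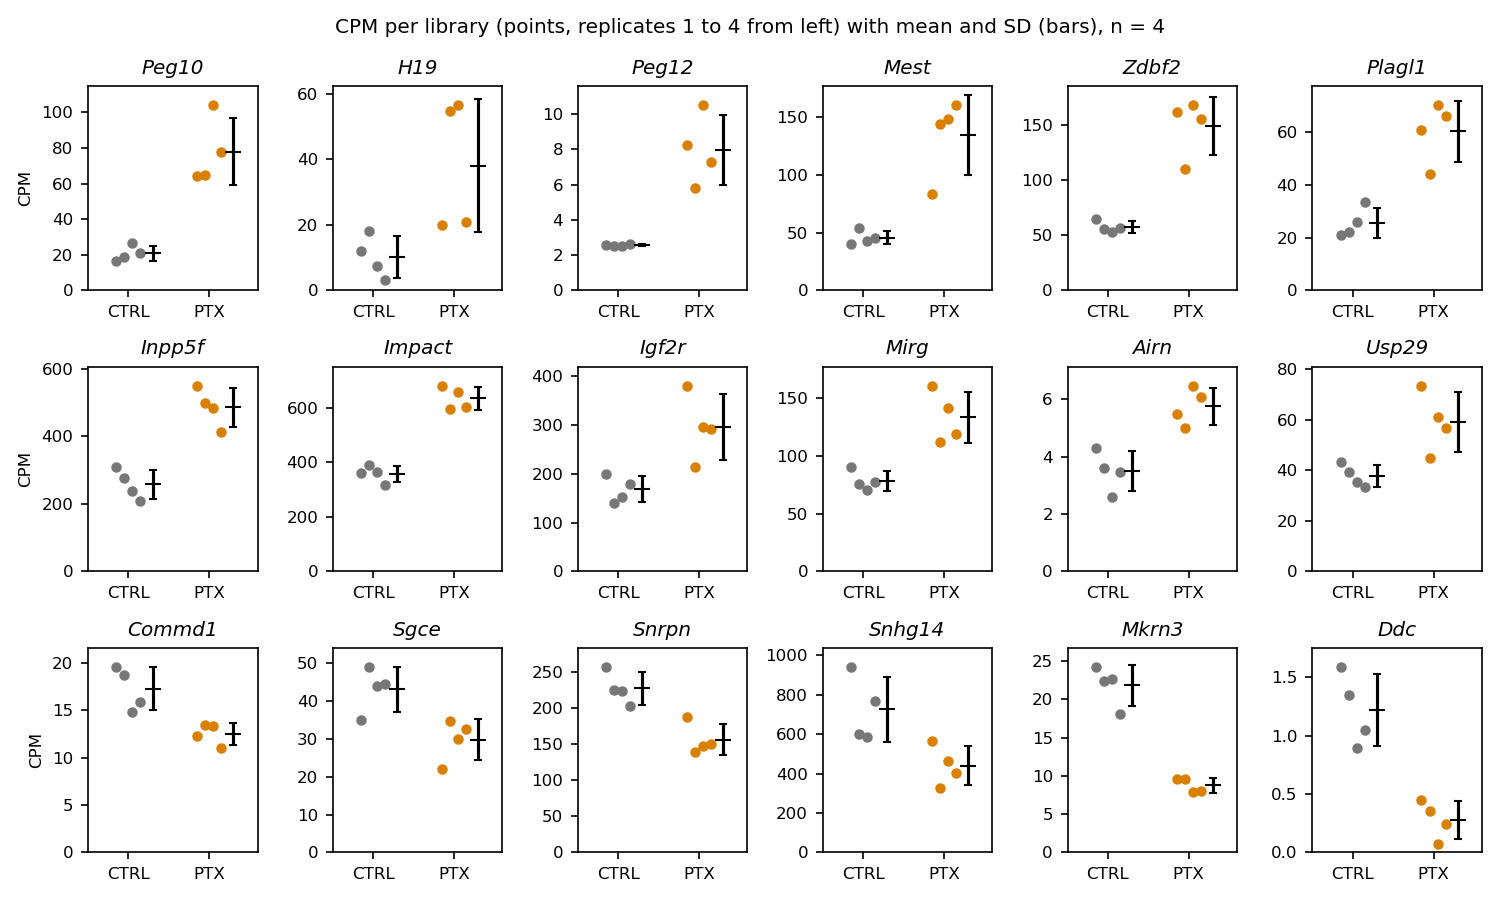
CPM in each of the 8 libraries for called imprinted genes, 1 panel per gene, with replicates 1 to 4 from left to right in each group, bars for the mean and SD (n = 4), and each axis starting at 0. In each panel the points of the CTRL and PTX libraries do not overlap.

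Peg10 and Sgce, whose ends lie 101 bp apart on chromosome 6, moved in opposite directions. Peg10, a gene derived from a retrotransposon and needed for the mouse placenta (chromosome 6, 4747306 to 4760517), was at 16.8, 18.7, 26.6 and 21.1 CPM in the CTRL cultures and 64.2, 65, 104 and 77.9 CPM in PTX. The lowest PTX library was above 2-fold the highest CTRL library, and the rise of 3.74-fold was the largest among the members (log2 fold change 1.90, SE 0.19, edgeR adjusted p = 4.09e-05). Sgce, which encodes epsilon-sarcoglycan (chromosome 6, 4674350 to 4747204), was at 34.8, 49.1, 43.9 and 44.5 CPM in the CTRL cultures and 22.1, 34.6, 30.1 and 32.5 CPM in PTX. It fell 1.44-fold (log2 fold change -0.53, SE 0.15, edgeR adjusted p = 0.0179), lowest in library 1 of both groups, and the call was lost without PTX 3 (edgeR adjusted p = 0.0572).

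On the same chromosome, Mest rose and the overlapping Copg2 did not pass the test. Mest, a gene of the hydrolase fold family active in mesoderm (chromosome 6, 30733506 to 30748466), was at 40.5, 53.7, 43.2 and 45.1 CPM in the CTRL cultures and 83.9, 144, 149 and 161 CPM in PTX. The groups did not overlap, PTX 1 being the lowest of its group, and the rise was 2.95-fold (log2 fold change 1.56, SE 0.19, edgeR adjusted p = 0.000141). Copg2, a subunit of the coatomer of Golgi vesicles, was at 98.7, 95.5, 86.2 and 84.2 CPM in the CTRL cultures and 83.1, 99, 75.8 and 70.8 CPM in PTX. These groups overlapped (log2 fold change -0.15, SE 0.11, edgeR adjusted p = 0.332), and the 913 bp shared by the ends of both genes hold reads that cannot be assigned without strand.

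H19 rose and Igf2 did not pass the test. H19, a noncoding RNA expressed from the maternal copy (chromosome 7, 142575530 to 142578146), was at 12.1, 18.3, 7.39 and 3.27 CPM in the CTRL cultures and 19.9, 54.7, 56.7 and 21 CPM in PTX. It varied widely within each group, yet every PTX library was above every CTRL library, a 3.70-fold rise (log2 fold change 1.89, SE 0.51, edgeR adjusted p = 0.0145). Igf2, the paternally expressed growth factor 72621 bp away (chromosome 7, 142650768 to 142666816), was at 118, 7.01, 10.9 and 6.86 CPM in the CTRL cultures and 83.1, 6.31, 6.27 and 6.01 CPM in PTX. Library 1 held 14.3 times the mean of the others in CTRL and 13.4 times in PTX. In the same 2 libraries the fibroblast marker Col3a1 was at 293 CPM against 6.27 to 9.34 in CTRL and at 226 CPM against 4.79 to 10.7 in PTX. Of the 11 tested fibroblast markers, 8 were highest in library 1 of both groups, and 2, Ogn and Pdgfra, were lowest there. The part of fibroblasts in the Igf2 level was not tested. Igf2 was at a log2 fold change of -0.49 (edgeR adjusted p = 0.775), 1.69 without CTRL 1 (0.208), -2.46 without PTX 1 (0.0936) and -0.38 without both libraries numbered 1 (0.172). Blocked on replicate it fell by 0.44 on the log2 scale (edgeR adjusted p = 0.00342), with 4 of 4 pairs in that direction.

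**Figure D3:**
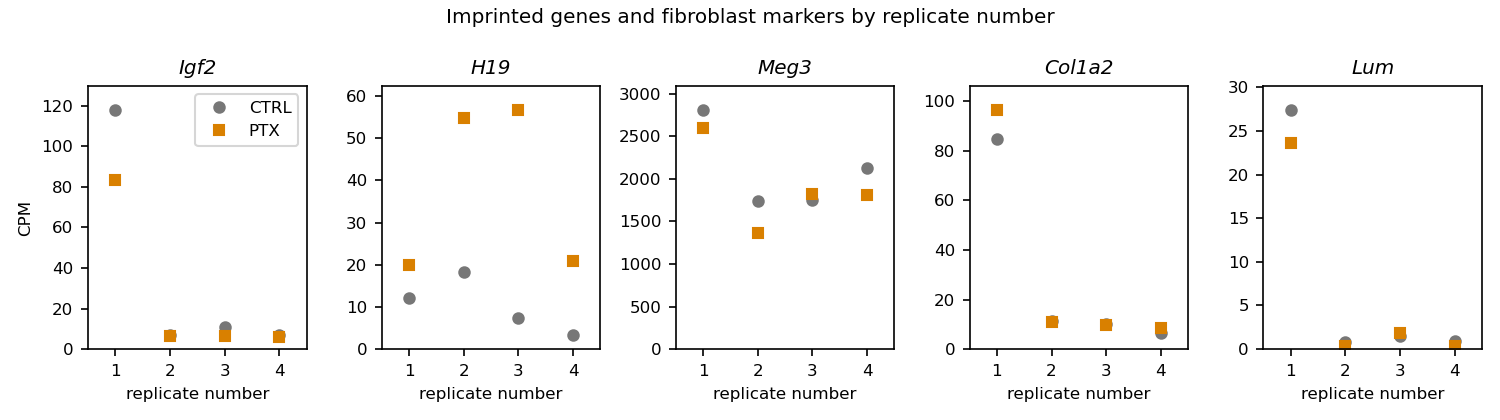
CPM by replicate number in CTRL and PTX for Igf2, H19, Meg3 and the fibroblast markers Col1a2 and Lum, 1 panel per gene, each axis starting at 0. Igf2 reached 118 CPM in library 1 of CTRL and 83.1 CPM in library 1 of PTX, and lay at 6.01 to 10.9 CPM in the other 6 libraries. The fibroblast markers Ogn and Pdgfra, not shown, were lowest in library 1 of both groups.

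Igf2 was the member with the widest gap. Of the 36 tested members, 16 were highest in library 1 of both groups (44.4%), compared with 17.8% of all tested genes. The other margins were smaller. Library 1 held 1.15 times the mean of the others in CTRL and 1.14 times in PTX for Mkrn3, and 2.18 and 2.65 times for Zim1. Among tested markers, 8 of 11 for meningeal fibroblasts and 5 of 8 pan-neuronal ones were also highest in library 1 of both groups. The fibroblast markers Ogn and Pdgfra were lowest in both. Mest, Peg10, Sgce and Gnas were lowest in library 1 of both groups. This is a description of the 8 libraries, with no test. Without both libraries numbered 1, all 12 risen members and 5 of the 6 fallen members were still called, the exception being Commd1.

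Igf2r and its antisense RNA Airn rose together. Igf2r, the receptor that takes up and degrades Igf2 and carries lysosomal enzymes (chromosome 17, 12682406 to 12769706), was at 200.0, 140.4, 153 and 180.3 CPM in the CTRL cultures and 381, 214, 296 and 293 CPM in PTX. PTX 2 lay closest to CTRL, without overlap, and the rise was 1.76-fold (log2 fold change 0.81, SE 0.17, edgeR adjusted p = 0.00405). Airn, the paternal noncoding RNA that silences Igf2r on that copy in most tissues outside neurons (chromosome 17, 12741311 to 12859884), was at 4.30, 3.59, 2.60 and 3.46 CPM in the CTRL cultures and 5.49, 5.01, 6.48 and 6.07 CPM in PTX. It rose 1.65-fold (log2 fold change 0.72, SE 0.19, edgeR adjusted p = 0.0122). The 2 genes share 28396 bp, and without the strand setting reads of Igf2r introns and of Airn in that stretch cannot be told apart.

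Ddc fell and its neighbour Grb10 did not pass the test. Ddc, the decarboxylase that makes dopamine and serotonin from their precursors (chromosome 11, 11814101 to 11898144), was at 1.59, 1.35, 0.899 and 1.05 CPM in the CTRL cultures and 0.447, 0.354, 0.0689 and 0.243 CPM in PTX. The groups did not overlap, at low counts, and the fall was 4.24-fold (log2 fold change -2.09, SE 0.42, edgeR adjusted p = 0.00318). Grb10, an adaptor that dampens insulin signalling and is expressed from the paternal copy in neurons, was at 114, 78.9, 80.4 and 75.5 CPM in the CTRL cultures and 91.8, 74.5, 73.1 and 65.1 CPM in PTX. Its 4 pairs all had the lower value under picrotoxin (log2 fold change -0.20, SE 0.15, edgeR adjusted p = 0.339), and blocked on replicate it fell (edgeR adjusted p = 0.0291).

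In the Dlk1-Dio3 domain of chromosome 12, Mirg rose and Meg3 did not pass the test. Mirg, a noncoding host of microRNAs (chromosome 12, 109734981 to 109749458), was at 90.0, 76, 70.0 and 77.1 CPM in the CTRL cultures and 161, 112, 141 and 119 CPM in PTX. All PTX libraries were above all CTRL libraries, a 1.70-fold rise (log2 fold change 0.77, SE 0.13, edgeR adjusted p = 0.00104). Meg3, a noncoding RNA of the same maternal copy, was at 2109 ± 499.8 CPM in the CTRL cultures and 1898 ± 514 CPM under picrotoxin (SD, n = 4; edgeR adjusted p = 0.615). Rian, the small nucleolar RNA host between them, had 5 counts over the CTRL and 23 over the PTX libraries and was not tested. In RefSeq 15 other genes overlap Rian, and whether its reads were lost to such overlaps was not tested. Dlk1, a Notch ligand relative, had 0 counts in all 8 libraries, which allows up to 0.0436 CPM in CTRL and 0.0462 CPM in PTX at 3 counts over a group. Dio3, the deiodinase that inactivates thyroid hormone, had 33 counts in CTRL and 9 in PTX, too few for the filter. Tested without the filter it was at a log2 fold change of -1.70, which missed the threshold (edgeR adjusted p = 0.0512).

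Among loci with a single member, Zdbf2, Plagl1, Inpp5f and Impact rose and Commd1 fell. Zdbf2, a zinc finger gene that acts on growth through the hypothalamus (chromosome 1, 63200358 to 63314576), was at 65, 55.1, 52.5 and 56.3 CPM in the CTRL cultures and 161, 109.8, 168 and 155 CPM in PTX. The lowest PTX library was well above the highest CTRL library, and it rose 2.59-fold (log2 fold change 1.38, SE 0.14, edgeR adjusted p = 4.09e-05). Plagl1, a zinc finger transcription factor that restrains growth (chromosome 10, 13090832 to 13131694), was at 21.1, 22, 25.8 and 33.8 CPM in the CTRL cultures and 60.8, 44.2, 70.6 and 66.3 CPM in PTX, without overlap. Its rise was 2.36-fold (log2 fold change 1.24, SE 0.18, edgeR adjusted p = 0.000437).

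Inpp5f, a phosphoinositide phosphatase with an imprinted brain isoform (chromosome 7, 128611181 to 128696436), was at 308, 275, 237 and 209 CPM in the CTRL cultures and 549.6, 497, 483 and 411 CPM in PTX. Within each group its level was highest in library 1 and lowest in library 4, and the groups did not overlap (1.89-fold, log2 fold change 0.91, SE 0.13, edgeR adjusted p = 0.000454). Counts per gene do not part the imprinted isoform from the others. Impact, an inhibitor of the stress kinase Gcn2 that is abundant in neurons (chromosome 18, 12954690 to 12992950), was at 359, 390.5, 363 and 318 CPM in the CTRL cultures and 681, 596, 659 and 601 CPM in PTX. The spread within each group was small and the rise 1.77-fold (log2 fold change 0.83, SE 0.09, edgeR adjusted p = 6.83e-05). Commd1, a regulator of copper and NF-kappaB (chromosome 11, 22899728 to 22984539), was at 19.6, 18.7, 14.9 and 15.9 CPM in the CTRL cultures and 12.3, 13.5, 13.3 and 11 CPM in PTX. It fell 1.38-fold (log2 fold change -0.47, SE 0.12, edgeR adjusted p = 0.0137), the smallest called change among the members, and was not called without CTRL 1 (edgeR adjusted p = 0.0645), without PTX 4 (0.0651) or without both libraries numbered 1 (0.0785).

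The remaining members did not pass the test. Nnat, a proteolipid gene of developing neurons, was at 314 ± 31.2 CPM in the CTRL cultures and 338 ± 53.1 CPM under picrotoxin (SD, n = 4), and Blcap, the gene whose intron holds it, at 44.3 ± 3.93 and 55.3 ± 10.2 CPM. Blcap exceeded its same-numbered control in 4 of 4 pairs and rose when blocked on replicate (edgeR adjusted p = 0.00277), against 0.0749 without it. It also passed without CTRL 1 (0.0434), without PTX 4 (0.0183) and without both libraries numbered 1 (0.0396). Gnas, the gene of the stimulatory G protein alpha subunit, was at 469.8 ± 29.4 CPM in the CTRL cultures and 437 ± 27.6 CPM in PTX (edgeR adjusted p = 0.346). In the Kcnq1 domain the antisense RNA Kcnq1ot1 was at 175 ± 61 and 192 ± 54.8 CPM. The cell cycle inhibitor gene Cdkn1c was at 3.91 ± 0.262 and 5.01 ± 0.947 CPM (edgeR adjusted p = 0.146, and 0.0443 without PTX 4). Phlda2, a gene that limits placental growth, had 0 counts in CTRL and 2 in PTX and was not tested. Rasgrf1, a neuronal exchange factor for Ras, was at 56.9 ± 10.9 and 58.9 ± 4.77 CPM, and the vesicle tethering gene Trappc9 at 57 ± 2.12 and 52 ± 4.99 CPM. H13, the signal peptide peptidase gene, was at 59.8 ± 2.23 and 57.2 ± 5.20 CPM, and Mcts2, a retrogene in its intron, at 7.27 ± 1.28 and 6.11 ± 0.521 CPM. Adjusted p of Nnat, Kcnq1ot1, Rasgrf1, Trappc9, H13 and Mcts2 lay between 0.25 and 0.812 (edgeR). Mcts2 is a copy of a gene elsewhere in the genome, so its reads are uncertain.

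Neighbours within a locus were then set against each other in the same library, as the log2 ratio of their counts, which does not depend on library size. Neighbours here are tested members that follow each other in position within a locus, and other genes can lie between them. The widest gap was 1898099 bp, between Snrpn and Ndn. Of 17 neighbouring pairs, 10 differed between PTX and CTRL in an exact two-sided permutation test over the 8 libraries. Each of the 10 had an exact permutation p = 0.0286, the smallest this design allows, and adjusted p = 0.0486 over the 17 pairs. The share among neighbouring genes elsewhere in the genome was not computed. Taken singly, 38.0% of all tested genes did not overlap between the groups, so the count of 10 is not read as a trait of imprinted loci. The largest shifts were Mkrn3 against Peg12 (-2.90), Sgce against Peg10 (-2.43), Ddc against Grb10 (-1.998), Mest against Copg2 (1.68) and Magel2 against Mkrn3 (1.19). Smaller shifts were those of Meg3 against Mirg (-0.92), Ube3a against Snhg14 (0.86), Peg3 against Usp29 (-0.74), Snrpn against Ndn (-0.32) and Blcap against Nnat (0.21). The log2 ratio of Sgce to Peg10 was 1.06 ± 0.27 in CTRL and -1.38 ± 0.38 in PTX (SD, n = 4), without overlap. The log2 ratio of Peg3 to Usp29 ran from 3.33 to 3.76 in the CTRL libraries and from 2.76 to 2.91 in the PTX libraries.

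The other 7 pairs did not pass. Igf2r against Airn shifted by 0.060 log2 units (exact permutation adjusted p = 0.82), from 5.59 ± 0.25 in CTRL to 5.65 ± 0.31 in PTX. Snhg14 against Snrpn shifted by -0.17 (0.448), Ndn against Magel2 by -0.10 (0.745), Zim1 against Peg3 by -0.079 (0.914), Kcnq1ot1 against Cdkn1c by -0.19 (0.745) and H13 against Mcts2 by 0.17 (0.448). H19 against Igf2 shifted by 2.39 with wide spread (0.265). The ratios of H19 to Igf2 and of H13 to Mcts2 were higher in PTX in 4 of 4 same-numbered pairs, and the permutation test does not use the pairing. In the pairs that overlap on the genome the ratio can hold reads of either gene. The ratios were computed after the gene-wise results had been seen. They reuse the counts of those results, so a pair that passed is not independent evidence for the call of its gene. Magel2 against Mkrn3 and Mkrn3 against Peg12 share Mkrn3, and Magel2 had only 7 to 14 counts per library. Every passing pair sat at the floor of the exact permutation test, so whether any passed after adjustment depended on how many pairs reached that floor.

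**Figure D4:**
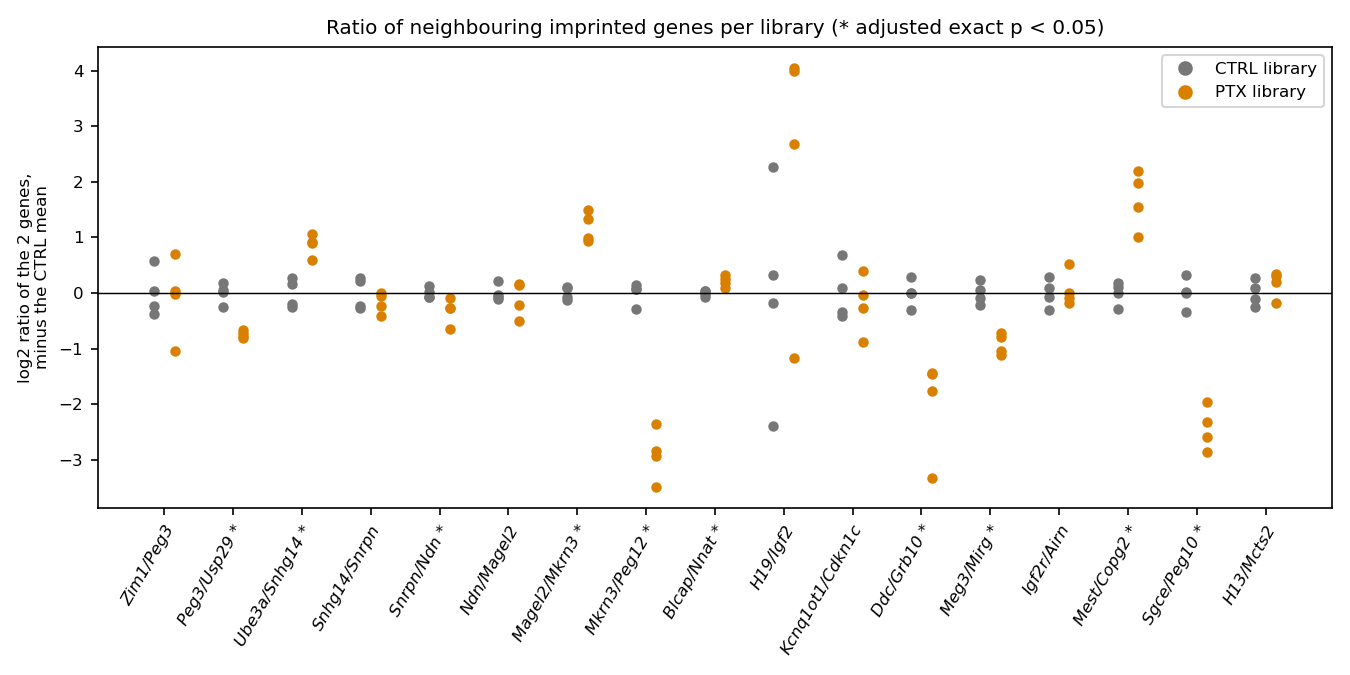
Log2 ratio of the counts of neighbouring imprinted genes in each of the 8 libraries, minus the mean of the CTRL libraries, with CTRL and PTX side by side for each of the 17 pairs and a star where the exact test passed. In 10 pairs, among them Sgce against Peg10 and Mkrn3 against Peg12, the 4 PTX libraries do not overlap the 4 CTRL libraries. The share among other neighbouring genes was not computed.

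L3mbtl1 peaks lay in or within 2000 bp of 7 of the 41 members (17.1%), namely Gnas, Igf2r, Airn, Impact, Peg10, Sgce and Rasgrf1. All 7 are among the 36 tested members. Of all tested genes with a position 28.5% carried such a peak, a share to be read beside 7 of 36 and not beside 17.1%. Within 2000 bp of a gene end, the count was 5 of the 36 tested members, against 26.0% of those genes. The list has 4677 peaks and a score per peak that is the authors' own and is used here only to rank peaks within it. L3mbtl1 itself fell 3.39-fold in the cultures, from 9.97 ± 0.969 to 2.92 ± 1.83 CPM under picrotoxin (SD, n = 4; edgeR adjusted p = 0.00249), whereas the peaks come from untreated tissue of another age, so no peak below was measured under picrotoxin.

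The widest and highest-ranked peak of the group lay in Gnas (chromosome 2, 174295461 to 174299450), at 3990 bp and score 46.0, rank 4 of 4677. It lies inside the long Gnas unit, next to an end of Gnasas1, the antisense transcript of the locus. Another Gnas peak, 174327482 to 174327666, of score 9.40 (rank 3279), has its centre 175 bp upstream of an internal Gnas start. The gap between Peg10 and Sgce holds no peak, but the peak at chromosome 6, 4747665 to 4748916 (1252 bp, score 22.9, rank 103), begins inside Peg10 and has its centre 984 bp from the lower-coordinate end of Peg10 and 1086 bp from the nearest end of Sgce. This peak thus stands beside both a gene that rose and a gene that fell.

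Rasgrf1 had a peak across its start (chromosome 9, 89908892 to 89910418, 1527 bp, score 10.2, rank 2708), which covers the promoter printed above, and another just upstream (89908603 to 89908822, score 11.6, rank 1838). Igf2r and Airn shared a peak at chromosome 17, 12768437 to 12769205, of score 8.19 (rank 4554), with its centre 885 bp inside Igf2r from the start. Impact had a peak of 176 bp near its lower-coordinate end (chromosome 18, 12955550 to 12955725, score 9.81, rank 2993). Of the 7 members with a peak 5 were called (Igf2r, Airn, Impact and Peg10 higher, Sgce lower), as were 13 of the 29 tested members without one and 39.2% of all tested genes. Of the 5, Igf2r and Airn share a peak and so do Peg10 and Sgce. With 7 members, whether a peak and a call go together was not tested. Among the members with no peak in this list were Peg3, Mest, Zdbf2 and all 7 members of the Prader-Willi and Angelman region.

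**Figure D5:**
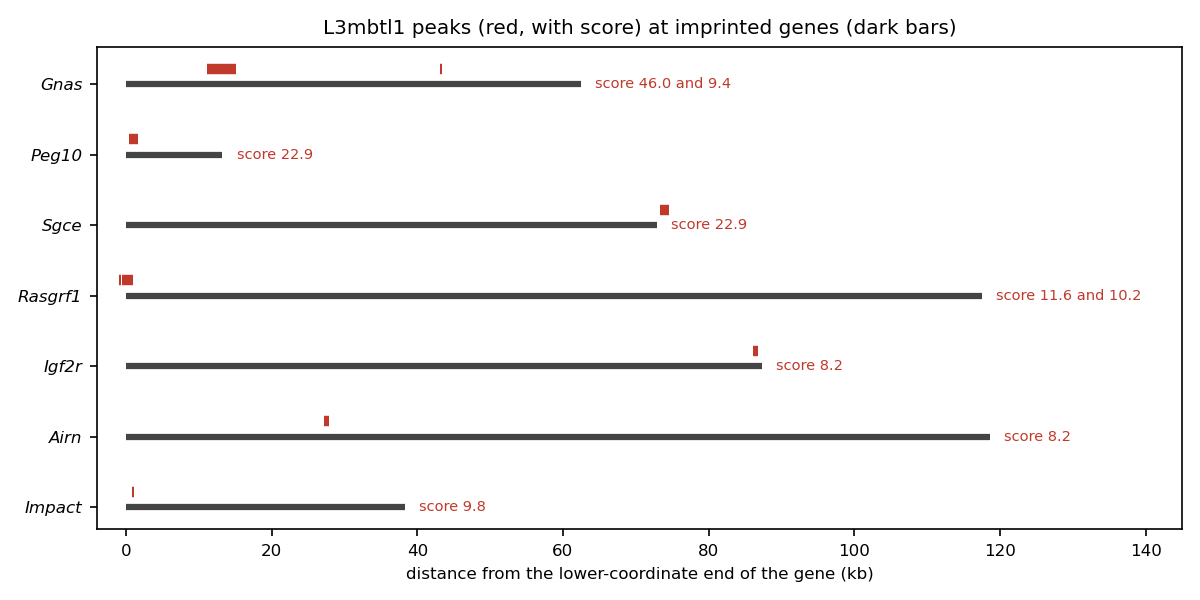
Positions of L3mbtl1 peaks (red) on the 7 imprinted genes that carry one, with distance in kb from the lower-coordinate end of each gene and the authors' score. The Gnas peak of score 46.0 is the widest, and the peak of score 22.9 appears at both Peg10 and Sgce.

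A list of 43 further imprinted genes was read beside the members. Of the 31 tested, 10 rose and 5 fell (48.4%, against 39.2% of all tested genes), with a median log2 fold change of 0.029. The smallest p-values belonged to Klf14, Ppp1r9a and Htr2a. Klf14, a maternally expressed transcription factor gene near Mest, was at 0.767, 0.337, 0.350 and 0.196 CPM in the CTRL cultures and 13.4, 15.7, 21.5 and 15.6 CPM in PTX. It rose 39.4-fold (edgeR adjusted p = 2.65e-06), against at most 3.74-fold for a rise among the 41 members. Ppp1r9a, the gene of the synaptic scaffold neurabin and a neighbour of Peg10, fell 2.205-fold from 288 ± 2.06 to 131 ± 7.53 CPM (edgeR adjusted p = 3.13e-06). Htr2a, a serotonin receptor gene, rose 4.32-fold from 5.20 ± 0.528 to 22.5 ± 3.48 CPM (edgeR adjusted p = 4.96e-06).

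The genes that set, keep or read imprints also moved in both directions. Of 22 tested, 6 rose and 3 fell (40.9%, against 39.2% of all tested genes), with a median log2 fold change of -0.12. Zfp57, the zinc finger protein that holds methylation at imprinted control regions, was at 40.7, 40.9, 35.6 and 37 CPM in the CTRL cultures and 90.6, 69.8, 83.7 and 74.3 CPM in PTX, without overlap. It rose 2.06-fold (edgeR adjusted p = 3.17e-05). Dnmt1, the maintenance methyltransferase, rose 1.82-fold from 101 ± 4.30 to 184 ± 9.62 CPM, and Tet3, a dioxygenase that oxidises methylated cytosine, rose 2.64-fold from 41.2 ± 5.44 to 109 ± 19 CPM (edgeR adjusted p = 1.52e-05 and 6.01e-05). Eed, Ezh2 and Tet2 also rose, whereas Tet1, Dnmt3a and Kdm1b fell, and these 6 are named after their values were seen. Tet1 went from 60.6 ± 8.80 to 21.6 ± 4.88 CPM, a 2.81-fold fall, the opposite direction to Tet3. Methylation itself was not measured.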

How the data were processed

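The authors deposited a table of raw counts for each RNA-seq library, 1 row per Ensembl gene. Libraries were ScriptSeq v2, from 15 ng of RNA after removal of ribosomal RNA, per the labels' protocols. The tools named, without roles, are Bowtie2 2.2.4, HTSeq 0.6.1, TopHat2 2.0.9 and CASAVA 1.8, and the build is mm10, per the submitters' processing notes. Strand setting, annotation release, peak caller, replicate pooling and the use of the knockout samples were not given in the sources used. The 5 summary lines of each table were left out: 19.9% to 26.8% of reads fell outside genes, and 15.2% to 20.5% were not unique. The authors deposited a single L3mbtl1 peak list, with a score per peak, covering the 6 ChIP-seq samples.

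Counts of all 8 libraries were compared with edgeR 4.0.16 in R 4.3.3 (quasi-likelihood F test, TMM, filterByExpr, group as the only term, Benjamini-Hochberg over 15959 genes, threshold 0.05). The script was tested on simulated data. CPM used TMM-scaled totals. Fold changes are PTX over CTRL. Alternatives were RLE and upper quartile scaling, no filter, a replicate block, leaving out libraries, and DESeq2 1.42.0. Deviations of same-numbered libraries from their group means correlated at 0.77, 0.57, 0.15 and 0.61 across genes (numbers 1 to 4). The pair numbered 3 is the weakest, since CTRL 3 correlated at 0.21 with both PTX 2 and PTX 4. All 4 were above 0.1, but so were those of CTRL 3 just named and that of CTRL 4 with PTX 3 (0.103). The numbers come from the titles, which state no pairing, so treating them as pairs is an assumption. The main test does not use it, and the block result is given where it changes a call. No library copied another, as counts of libraries within a group differed by a chi-square of at least 9.45 per degree of freedom. Ratios of neighbours added 0.5 counts to each gene. Peaks were assigned by an overlap of at least 1 bp with the RefSeq gene position (GRCm38.p6) widened by 2000 bp. Floors cover counting error only.

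Members and lists were chosen with earlier results of these data known. Values in every library are given for called members with a mean CPM of at least 1 and for members of loci of 2 or 3 members with a called gene; of other lists, the 3 members of smallest p are named.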

Additional observations from a re-analysis of the deposited data

Results flagged for a closer look

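In 5 of 72 groups of 4 libraries (36 members in CTRL and in PTX), 1 library lay far from the others by Dixon's criterion, which chance meets in about 1 in 20 groups, and 3 of the 5 were libraries numbered 1. Igf2 was at 118 CPM in CTRL 1 against 6.86 to 10.9 CPM in the other CTRL libraries, and at 83.1 CPM in PTX 1 against 6.01 to 6.31 CPM. Grb10 was at 114 CPM in CTRL 1 against 75.5 to 80.4 CPM. Ndn was at 188 CPM in CTRL 4 against 221 to 223 CPM, and Kcnq1ot1 at 110.2 CPM in PTX 2 against 217 to 222 CPM.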

How the results depend on the processing

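Over 14 alternatives, 15 of the 18 called members kept their call in all, including all 12 that rose. The exceptions, Snhg14, Sgce and Commd1, are given in the report. Called members ranged from 12 to 14 higher and from 4 to 9 lower. With the replicate block, which pairs libraries by number, 13 members rose and 9 fell, falls in the list of other imprinted genes numbered 9 instead of 5, and falls among imprint maintenance genes 5 instead of 3. Leaving out 1 library, falls among other imprinted genes ranged from 3, without CTRL 3 or PTX 3, to 5. With only the higher-scoring peaks, those above the median score, 4 of the 36 tested members carried a peak, against 15.9% of all positioned tested genes. Uncalled log2 fold changes that turned sign when 1 library was left out were those of Peg3 (-0.18 to 0.047), Zim1 (-0.49 to 0.38), Magel2 (-0.26 to 0.056), Igf2 (-2.46 to 1.69), Kcnq1ot1 (-0.011 to 0.37), Grb10 (-0.26 to 0.013), Meg3 (-0.29 to 0.072) and H13 (-0.11 to 0.041). Without both libraries numbered 1, Rasgrf1 went to -0.0075 and H13 to 0.045. The cause was not tested. The median log2 fold change of all genes was -0.033 with TMM, -0.0017 with RLE and -0.068 with upper quartile scaling. Low counts limit Ddc, Magel2, Dio3 and Rian.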
